A study of Mus musculus with 6 samples.

Results

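Genes of the glutathione, thioredoxin and NRF2 defence against oxidants were followed in RNA from mouse tumour libraries labelled as neutrophils. They are Nfe2l2, Slc7a11, Gclc, Gclm, Gsr, Txnrd1, Srxn1, Gpx1, Gpx4 and Prdx1, taken by name as 10 of the 21959 genes in the deposited table, and all 10 passed the filter on low values. The 6 libraries were 3 labelled GPR35-positive and 3 labelled GPR35-negative, after the surface receptor GPR35, and came from mouse liver cancer models made with the hepatoma line Hepa1-6. The labels give the cell type neutrophil for all of them. They give no strain, age or sorting method and do not state whether the replicates are different animals; the p-values therefore reflect no more than the scatter among these 6 libraries, part or all of which may be technical.

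Glutathione is a tripeptide thiol that cells make from cysteine, which many cells take up as cystine, and it serves as the reducing agent of the glutathione peroxidases. Thioredoxin reductase and sulfiredoxin keep the parallel thioredoxin and peroxiredoxin system running. NRF2, the protein of Nfe2l2, is a transcription factor that KEAP1 marks for degradation until oxidants or electrophiles stop it. It then binds antioxidant response elements in genes of both systems. Slc7a11 is also a known target of ATF4, the transcription factor of the amino acid response, and neutrophils are cells that make large amounts of oxidants themselves.

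The libraries held more than neutrophil RNA, and this bears on every gene below. Levels are FPKM, fragments scaled to exon length and to library size. The 18 mature neutrophil markers, none of them at 0, summed to 10061 to 11018 FPKM in GPR35-positive and 913 to 1171 FPKM in GPR35-negative libraries. The 17 macrophage and monocyte markers summed to 951 to 983 FPKM in GPR35-positive and 37.9 to 51.6 FPKM in GPR35-negative libraries. The 16 hepatocyte and hepatoma markers summed to 16986 to 17411 FPKM in GPR35-positive and 25449 to 26864 FPKM in GPR35-negative libraries, a larger sum than that of the neutrophil markers in both groups, which goes against the neutrophil label. Of single markers, the hepatocyte gene Trf was highest in both groups, while the neutrophil gene S100a8, at 5262 FPKM in GPR35-positive and 517 FPKM in GPR35-negative libraries on average, was second in GPR35-positive libraries. The ratios of these sums, GPR35-positive over GPR35-negative, were 10.1, 21.5 and 0.657, and their part in the results for the 10 genes was not tested. In bulk RNA, fewer cells of a type and less RNA per cell cannot be told apart. Gpr35 itself averaged 20.2 ± 1.89 FPKM in GPR35-positive and 1.57 ± 0.398 FPKM in GPR35-negative libraries (SD, n = 3 each). Reads assigned to genes, recovered from the FPKM values and exon lengths, ranged from 15742744 to 18314104 per library.

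The promoter windows of 8 of the 10 genes differ in which of 2 known elements their letters hold. The stretches below are shown because these elements belong to the NRF2 and ATF4 pathways. RefSeq sequence on GRCm38.p6 from 250 bases before to 50 after a start site was at hand for 8 of the genes, in 13 windows. Gclc and Gsr had none. The core letters of the antioxidant response element, TGACNNNGC on either strand, occurred in 5 of these 13 windows, 1 each of Nfe2l2, Gclm, Txnrd1, Srxn1 and Prdx1, and in 12.4% of all 32851 windows of that length. The ATF4 element, TGATGNAA on either strand, occurred 2 times in the window of Slc7a11, in no window of the other 7, and in 3.97% of all windows. The matches to the 2 motifs did not overlap each other, and the Prdx1 match also holds the AP-1 letters TGACTCA on the opposite strand. A match is a description of letters, not of a bound site, and letters outside the windows were not searched. In the lines below, 5′ to 3′ on each gene's own strand, capitals mark the matches. The Slc7a11 stretch is the 250 bases before its start site, chr3:50443614-50443863 on the reverse strand, and its matches begin 66 and 47 bases before the start. The others are the match with up to 20 bases on each side, at chr2:75704875-75704913 on the reverse strand for Nfe2l2, and on the forward strand at chr3:122245403-122245451 for Gclm, chr10:82859094-82859142 for Txnrd1, which lies before an internal start site of that gene, and chr4:116685446-116685494 for Prdx1. The Srxn1 match begins 28 bases after the start site and is not printed.
Slc7a11: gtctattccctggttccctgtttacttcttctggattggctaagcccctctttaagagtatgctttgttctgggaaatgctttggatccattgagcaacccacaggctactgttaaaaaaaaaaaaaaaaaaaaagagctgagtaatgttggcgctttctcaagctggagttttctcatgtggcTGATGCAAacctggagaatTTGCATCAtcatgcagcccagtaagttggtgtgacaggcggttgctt
Nfe2l2: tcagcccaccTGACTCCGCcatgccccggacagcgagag
Gclm: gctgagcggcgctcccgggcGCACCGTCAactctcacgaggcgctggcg
Txnrd1: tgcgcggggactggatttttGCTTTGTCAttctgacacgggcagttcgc
Prdx1: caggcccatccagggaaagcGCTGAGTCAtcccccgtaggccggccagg

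The comparison asks how the antioxidant genes differed between GPR35-positive and GPR35-negative libraries, and whether Slc7a11 stood with or apart from the rest. Slc7a11, Nfe2l2, Txnrd1 and Srxn1 rose, Gclc, Gpx4 and Prdx1 fell, and Gclm, Gsr and Gpx1 did not pass the test. Thus 7 of 10 were called at an adjusted p under 0.05, beside 68.8% of the 10060 genes tested, and 4 of 10 were higher, beside 23.3%. The 3 lower ones stand beside 45.5% of all genes tested. These shares are the background for each list below, and they hold both directions too. Genes in both directions within a list are therefore no feature of that list. The groups did not overlap in 7 of the 10 genes, beside 72.5% of all genes tested; GPR35-positive libraries were above in 4, beside 24.3%, and below in 3, beside 48.2%. The share of the 10 genes that passed was therefore near the background. Their median log2 fold change was 0.18, beside −0.19 for all genes tested, and 0.06 for the 9 without Slc7a11. The test was limma-trend on log2(FPKM + 1), on which scale log2 fold changes are given throughout and which understates changes of genes near or below 1 FPKM. Scaling the libraries by the median of their gene ratios moved the median of all genes to −0.03, and with it the 3 falls no longer passed, as given beside each of them. Under that scaling, 2950 of 10078 genes tested were higher and 2392 lower.

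**Figure D1:**
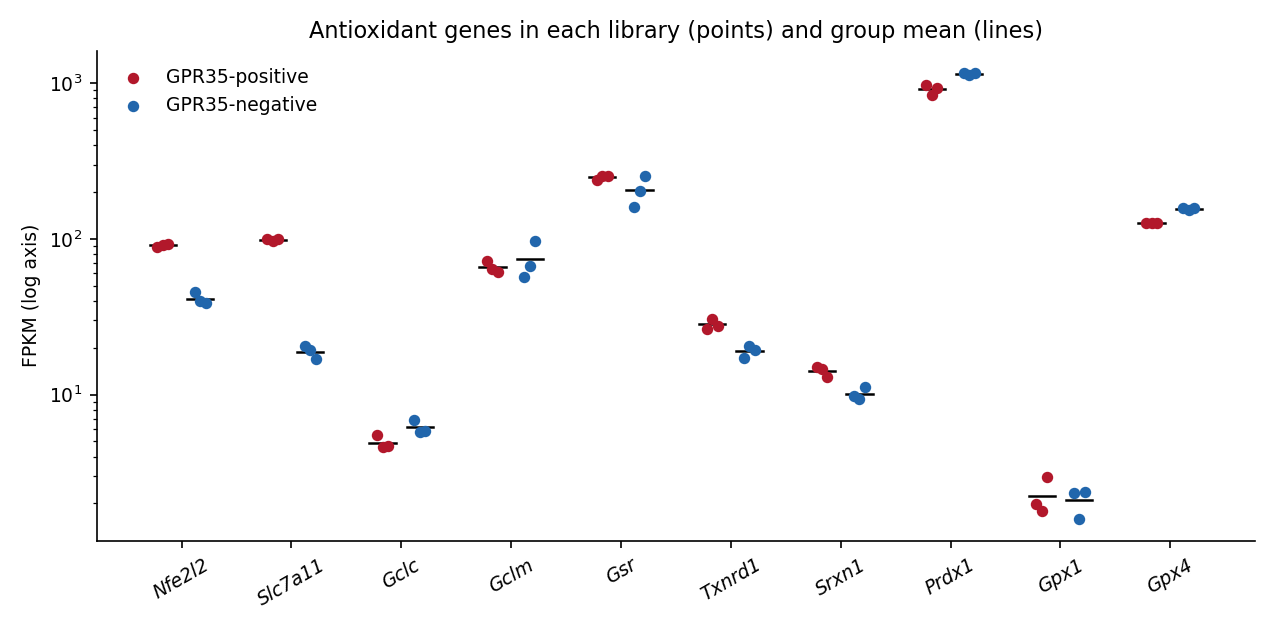
FPKM of the 10 genes (log axis) in each of 3 GPR35-positive and 3 GPR35-negative libraries, with points for libraries and lines for group means. Slc7a11 sits at 96.3 to 100.4 FPKM in GPR35-positive and 16.9 to 20.4 FPKM in GPR35-negative libraries, the largest ratio among the 10 genes.

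Nfe2l2, the NRF2 gene, lies on chromosome 2 from 75675513 to 75704641 on the reverse strand (GRCm38, as are all gene positions here). It was at 89.2, 91.2 and 93.0 FPKM among the GPR35-positive libraries, against 45.3, 40.0 and 38.6 FPKM in the GPR35-negative ones. Every GPR35-positive library was above every GPR35-negative one, and the ratio of means was 2.21. On the log2 scale the difference was 1.13 (SE 0.07, adjusted p = 4.2e-07), higher than that of 90.2% of the genes tested. A change in this transcript is not a measure of NRF2 protein, which is known to be set largely by degradation.

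Slc7a11 encodes xCT, the transport subunit of the cystine and glutamate exchanger, which brings in cystine for glutathione synthesis. The gene lies on chromosome 3 from 49892526 to 50443614 on the reverse strand. It was at 100.4, 96.3 and 100.3 FPKM among the GPR35-positive libraries, against 20.4, 19.3 and 16.9 FPKM in the GPR35-negative ones. The ratio of means was 5.25, and the groups were far apart relative to their spread, with SDs of 2.33 and 1.81 FPKM (n = 3 each). On the log2 scale the difference was 2.33 (SE 0.08, adjusted p = 2.56e-09), higher than that of 96.9% of the genes tested. These levels rest on 21897 to 25581 reads per GPR35-positive and 3702 to 4903 reads per GPR35-negative library. Summed neutrophil markers were 10.1-fold and macrophage markers 21.5-fold higher in the same GPR35-positive libraries.

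Set beside each of the other 9 genes within the same library, Slc7a11 was relatively higher in all 3 GPR35-positive libraries than in any GPR35-negative one. Slc7a11 per Nfe2l2 was 1.13, 1.06 and 1.08 in GPR35-positive libraries, against 0.451, 0.483 and 0.437 in GPR35-negative ones. Slc7a11 thus lay just above the NRF2 gene in GPR35-positive libraries and below it in GPR35-negative ones. Slc7a11 per Gclc averaged 20.2 ± 1.64 in GPR35-positive and 3.08 ± 0.255 in GPR35-negative libraries, and Slc7a11 per Gpx4 averaged 0.781 ± 0.0147 and 0.121 ± 0.0126 in the same order of groups (SD, n = 3 each). Over the 9 genes the mean ratio was between 2.38-fold higher (per Nfe2l2) and 6.63-fold higher (per Prdx1) in GPR35-positive libraries. These ratios are given without a test, because Slc7a11 was set apart with its rise already known.

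**Figure D2:**
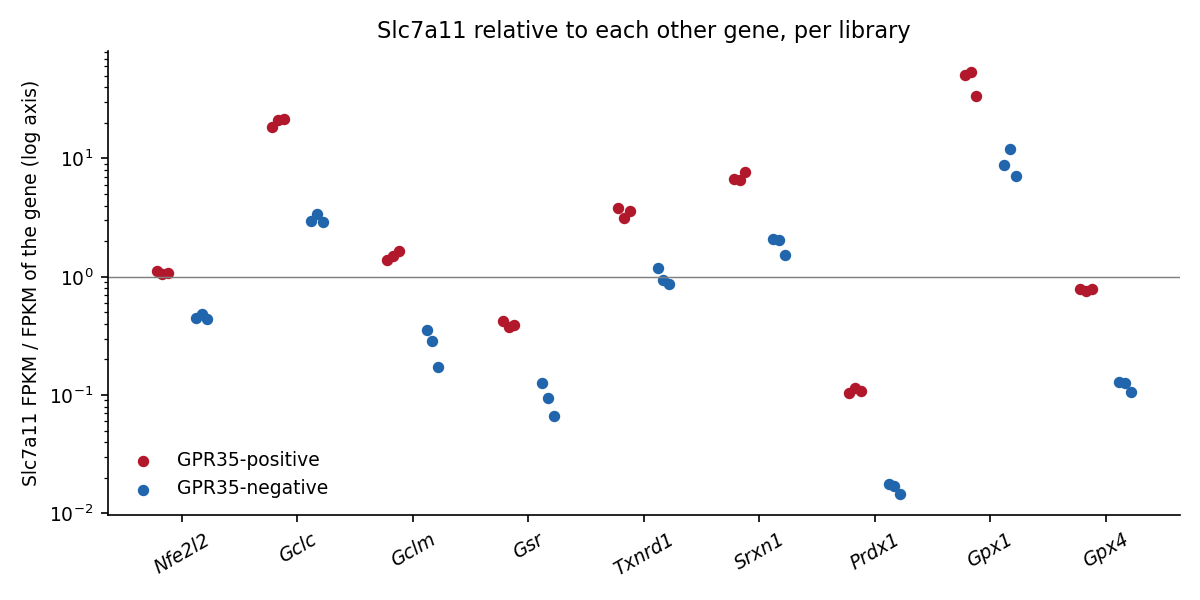
FPKM of Slc7a11 divided by FPKM of each other gene (log axis), with a point for each of 3 GPR35-positive and 3 GPR35-negative libraries; the grey line marks equal levels. For all 9 genes the GPR35-positive points lie above the GPR35-negative ones, from 1.06 to 1.13 against 0.437 to 0.483 for Nfe2l2.

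Slc3a2 encodes the heavy chain that carries xCT to the membrane and also serves other amino acid transporters. It was at 143, 150 and 143 FPKM among GPR35-positive libraries, against 107, 95.1 and 87.4 FPKM in the GPR35-negative ones, a log2 fold change of 0.59 (adjusted p = 0.00013). Slc7a11 per Slc3a2 was 0.703, 0.642 and 0.704 in GPR35-positive libraries, against 0.191, 0.203 and 0.193 in GPR35-negative ones. The transport subunit was thus below its partner in every library, but differed more between the groups. Of 6 genes tested in the list of cystine and cysteine supply, Slc7a11 and Slc3a2 rose and 4 fell, beside 23.3% and 45.5% of all genes. Those that fell with the smallest p were the neutral amino acid transporter genes Slc1a4 and Slc1a5, by 0.95 and 0.72 on the log2 scale, and Cbs, an enzyme of the route that makes cysteine from methionine, by 0.51. With median-of-ratios scaling the list held 2 higher and 3 lower genes.

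Across all genes tested, 5 had a pattern over the 6 libraries nearest to that of Slc7a11, by the root mean square difference of log2(FPKM + 1) centred on each gene's mean. They were Trpv2, a cation channel gene (difference 0.031), Kdm6b, a histone demethylase gene (0.043), Lyn, a kinase gene of haematopoietic cells (0.044), Slc38a1, a neutral amino acid transporter gene (0.044), and Cytip, a gene of leukocyte adhesion (0.046). Kdm6b had nearly the same level as well, with 99.8 ± 1.89 FPKM in GPR35-positive and 19.4 ± 2.63 FPKM in GPR35-negative libraries (SD, n = 3 each). The other 4 had log2 fold changes from 2.25 to 2.38. Their ratios of means were 8.73 (Trpv2), 5.68 (Lyn), 6.61 (Slc38a1) and 6.87 (Cytip), beside 5.25 for Slc7a11. Likeness on the log2(FPKM + 1) scale is thus not likeness in fold, because this scale understates changes at low levels. With only 6 libraries in 2 groups, the likeness rests almost wholly on the difference between groups.

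As deposited, Gclc, Gclm and Gsr, genes that make and recycle glutathione, were not called higher. Gsr passed as higher in some alternatives, given below. Gclc encodes the catalytic and Gclm the modifier subunit of glutamate-cysteine ligase, the enzyme that sets the rate of glutathione synthesis. Gclc (chromosome 9, 77754535 to 77794485, forward strand) was at 5.47, 4.59 and 4.70 FPKM among GPR35-positive libraries, against 6.85, 5.74 and 5.85 FPKM in GPR35-negative ones. The groups did not overlap, and Gclc fell by 0.27 on the log2 scale (SE 0.10, adjusted p = 0.0293). This call was lost with median-of-ratios scaling (log2 fold change −0.10, adjusted p = 0.378), without GPR35-negative replicate 1 (adjusted p = 0.0966) and without GPR35-positive replicate 2 or 3 (0.0931 and 0.104).

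Gclm (chromosome 3, 122245557 to 122270732, forward strand) was at 71.8, 63.9 and 61.3 FPKM among GPR35-positive libraries, against 57.0, 67.4 and 97.0 FPKM in GPR35-negative ones. The GPR35-negative libraries spanned the GPR35-positive ones, and replicate 3 stood highest. The difference of −0.13 on the log2 scale did not pass (SE 0.16, adjusted p = 0.464), and without GPR35-negative replicate 3 or with median-of-ratios scaling it was 0.078 or 0.061, and −0.30 without GPR35-negative replicate 1. Gclm stood 13.4 ± 0.487 times above Gclc in GPR35-positive and 12.2 ± 4.14 times in GPR35-negative libraries (SD, n = 3 each), both per exon length. Some 4.58% of the 50-base words of Gclm transcripts also occur in other annotated genes.

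Gsr encodes glutathione reductase, which returns oxidised glutathione to its reduced form with NADPH. The gene lies on chromosome 8 from 33652523 to 33698163 on the forward strand. It was at 237.8, 255.6 and 255.2 FPKM among GPR35-positive libraries, against 160.0, 203.1 and 253.0 FPKM in GPR35-negative ones. The groups overlapped only through GPR35-negative replicate 3, the same library that held the highest Gclm. The log2 fold change was 0.30 (SE 0.14) and did not pass (adjusted p = 0.0671). Gsr passed without GPR35-negative replicate 3 (0.47, adjusted p = 0.00158) and with median-of-ratios scaling (0.50, adjusted p = 0.0115). The value was 0.14 (adjusted p = 0.242) without GPR35-negative replicate 1.

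Of 12 genes tested for glutathione synthesis and turnover, 4 rose and 6 fell, beside 23.3% and 45.5% of all genes tested. With median-of-ratios scaling 5 rose and 4 fell. Those that rose as deposited were Ggct, which encodes gamma-glutamyl cyclotransferase, the glutathione-degrading enzyme gene Chac1, the gamma-glutamyl transferase family gene Ggt5 and the exporter gene Abcc1. Their ratios of means were 4.24, 2.35, 9.26 and 2.57, in the order Ggct, Chac1, Ggt5 and Abcc1. Ggt5 passed the filter only through the GPR35-positive libraries, so its call is no support for a rise. Ggct averaged 4.97 ± 0.288 FPKM in GPR35-positive and 1.17 ± 0.0843 FPKM in GPR35-negative libraries (SD, n = 3 each). Those that fell included the glyoxalase genes Glo1 and Hagh by 0.42 and 0.57, Oplah, an enzyme gene of the gamma-glutamyl cycle, by 0.85, and Gss, the glutathione synthetase gene, by 0.49 (adjusted p = 0.000306). Chac2, the paralog of Chac1, fell by 0.22 (adjusted p = 0.0272), a call lost after scaling by the median of ratios (adjusted p = 0.683), with limma-voom (0.0792) and without GPR35-negative replicate 2 or GPR35-positive replicate 2 or 3 (0.0778 to 0.106). Gss, Chac2, Glo1 and Hagh, and below Txn1, Atf4, Sqstm1 and Blvrb, were chosen for mention after their values were seen.

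The thioredoxin branch rose modestly at its reductase and its repair enzyme. Txnrd1 encodes the cytosolic thioredoxin reductase, and the gene lies on chromosome 10 from 82833951 to 82897712 on the forward strand. It was at 26.6, 30.7 and 27.8 FPKM among GPR35-positive libraries, against 17.2, 20.5 and 19.4 FPKM in GPR35-negative ones. The groups did not overlap, and Txnrd1 rose by 0.55 on the log2 scale (SE 0.09, adjusted p = 0.000326). Srxn1 encodes sulfiredoxin, which repairs over-oxidised peroxiredoxins, and lies on chromosome 2 from 152105516 to 152111376 on the forward strand. It was at 15.0, 14.5 and 13.1 FPKM among GPR35-positive libraries, against 9.73, 9.44 and 11.2 FPKM in GPR35-negative ones. Srxn1 rose by 0.45 on the log2 scale (SE 0.09, adjusted p = 0.00128), and again no GPR35-negative library reached a GPR35-positive one.

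Prdx1 encodes a peroxiredoxin, a peroxidase that sulfiredoxin repairs and thioredoxin reduces, and it had the highest level of the 10 genes in every library. The gene lies on chromosome 4 from 116685544 to 116700822 on the forward strand. It was at 970.3, 841.1 and 933.6 FPKM among GPR35-positive libraries, against 1158, 1138 and 1164 FPKM in GPR35-negative ones. The groups did not overlap, and Prdx1 fell by 0.34 on the log2 scale (SE 0.07, adjusted p = 0.00236), a call lost under median-of-ratios scaling (log2 fold change −0.14, adjusted p = 0.142). Its ratio of means was 0.793, beside 0.657 for the summed hepatocyte and hepatoma markers. Srxn1 and Prdx1 thus moved in opposite directions as deposited. Some 8.81% of the 50-base words of Prdx1 transcripts occur in other annotated genes.

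The rest of these families held calls in both directions, as among all genes tested. Of 10 thioredoxin and glutaredoxin genes tested, 2 rose and 4 fell, beside 23.3% and 45.5% of all genes tested. With median-of-ratios scaling 4 rose and 3 fell. The glutaredoxin gene Glrx rose to 43.4 ± 2.35 FPKM among GPR35-positive libraries, against 16.0 ± 0.707 FPKM in GPR35-negative ones (SD, n = 3 each, a ratio of 2.71), while Txnrd3, Txnrd2 and Glrx3 fell by 0.80, 0.45 and 0.47. Txn1, the cytosolic thioredoxin gene, averaged 263 ± 15.6 FPKM in GPR35-positive and 247 ± 2.81 FPKM in GPR35-negative libraries and missed the threshold (adjusted p = 0.269), but passed under that scaling (0.28, adjusted p = 0.00616). Of 9 peroxiredoxin and repair genes tested, 4 rose and 5 fell, beside the same shares of all genes tested. With median-of-ratios scaling 4 rose and 3 fell. Prdx5, a peroxiredoxin of mitochondria and other compartments, rose to 189 ± 8.26 FPKM among GPR35-positive libraries, against 89.9 ± 4.28 FPKM in GPR35-negative ones (SD, n = 3 each). The stress-induced sestrin genes Sesn2 and Sesn1 rose by 1.07 and 0.48, and Prdx6 and Prdx3 fell by 0.49 and 0.42.

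Gpx1 and Gpx4 encode selenium-containing glutathione peroxidases, of which GPX4 reduces lipid hydroperoxides in membranes and restrains ferroptosis. Gpx4 (chromosome 10, 80047166 to 80056439, forward strand) was at 127.1, 126.0 and 127.0 FPKM among GPR35-positive libraries, against 157.1, 154.1 and 159.1 FPKM in GPR35-negative ones. Replicates lay close together, the groups did not overlap, and Gpx4 fell by 0.30 on the log2 scale (SE 0.06, adjusted p = 0.00122). With median-of-ratios scaling the fall was not called (log2 fold change −0.11, adjusted p = 0.159). Some 34.7% of the 50-base words of Gpx4 transcripts occur in other annotated genes, all of them in the pseudogene Gpx4-ps2, so its level is uncertain where reads of such copies were split or lost.

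Gpx1, the widely expressed cytosolic peroxidase gene on chromosome 9 from 108338903 to 108340343 on the forward strand, was listed at a low level. It was at 1.98, 1.78 and 2.96 FPKM among GPR35-positive libraries, against 2.33, 1.60 and 2.38 FPKM in GPR35-negative ones. The groups overlapped, and the log2 fold change of 0.06 (SE 0.15) did not pass (adjusted p = 0.742). The sign was turned without GPR35-positive replicate 3 (−0.096) and without GPR35-negative replicate 2 (−0.068). Only 42 to 78 reads per GPR35-positive and 39 to 58 per GPR35-negative library lie behind these values, with exact 95% Poisson intervals for counting error from 30.3 to 97.3 and from 27.7 to 75.0 reads. No other gene annotated in GENCODE M21 overlaps its exons, and none of its 50-base words occurs in another such gene. The annotation used by the submitters is not given, and the reason for the low level was not tested. These values may therefore not give the true level of Gpx1. Of 6 peroxidase genes tested, 2 rose and 3 fell, beside 23.3% and 45.5% of all genes tested. Gpx7 and Gpx2 passed the filter only through the group in which each was higher, so their calls are no support for direction. With median-of-ratios scaling 2 rose and 1 fell. Gpx3, the secreted plasma form, rose to 10.9 ± 0.607 FPKM among GPR35-positive libraries, against 2.01 ± 0.0114 FPKM in GPR35-negative ones (SD, n = 3 each), by 1.98 on the log2 scale (adjusted p = 9.02e-09). Gpx7 rose by 0.60 and Gpx2 fell by 0.46, values that became 1.18 and −0.83 with a pseudocount of 0.1, and Gpx8 fell by 0.23 (adjusted p = 0.0429), a call lost with median-of-ratios scaling (adjusted p = 0.679), with limma-voom (0.101), without a filter (0.0686) and without GPR35-positive replicate 2 or 3 or any 1 of the GPR35-negative libraries (0.0541 to 0.148).

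**Figure D3:**
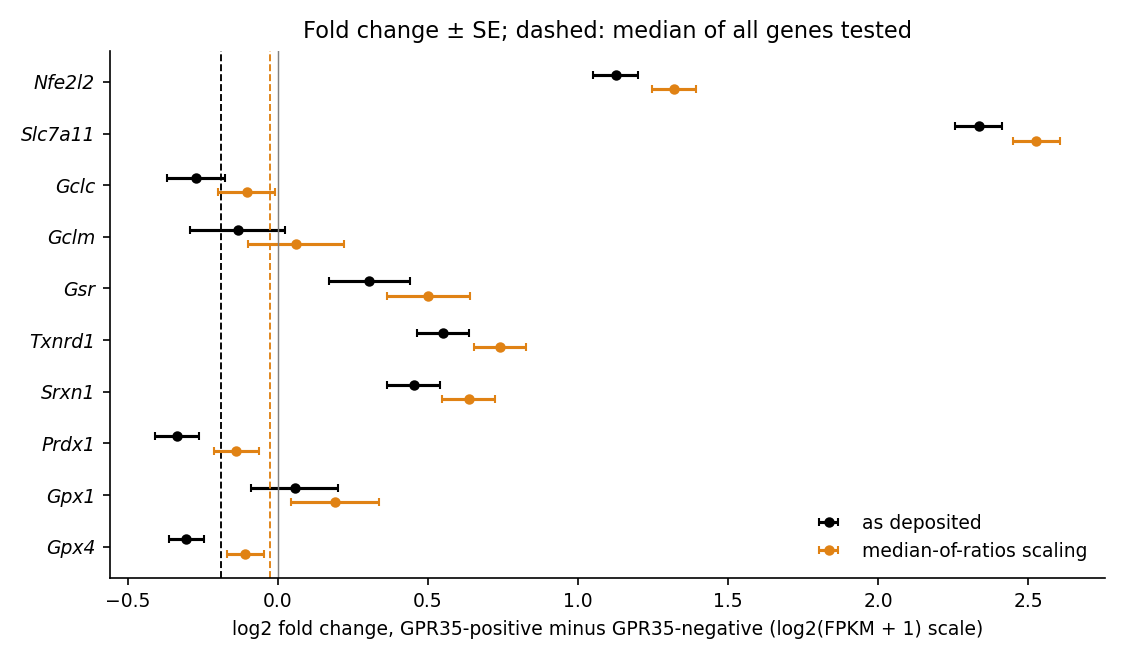
Log2 fold change, GPR35-positive minus GPR35-negative, on the log2(FPKM + 1) scale for the 10 genes, with bars for the SE from limma (n = 3 per group), as deposited (black) and with median-of-ratios scaling (orange); dashed lines mark the median of all genes tested, −0.19 and −0.03. Slc7a11, Nfe2l2, Txnrd1 and Srxn1 lie above 0 under both scalings, and Gclc, Gpx4 and Prdx1 move from about −0.3 towards 0.

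In order of mean level in GPR35-positive libraries, the genes ran Prdx1, Gsr, Gpx4, Slc7a11, Nfe2l2, Gclm, Txnrd1, Srxn1, Gclc and Gpx1. The ranges of neighbours in that order did not overlap, though Slc7a11 at its lowest, 96.3 FPKM, was close to Nfe2l2 at its highest, 93.0 FPKM. In GPR35-negative libraries the order was Prdx1, Gsr, Gpx4, Gclm, Nfe2l2, Txnrd1, Slc7a11, Srxn1, Gclc and Gpx1. There Txnrd1 and Slc7a11 overlapped, and the lowest Gsr, 160.0 FPKM, was close to the highest Gpx4, 159.1 FPKM. Slc7a11 was thus the 4th most abundant of the 10 in GPR35-positive and the 7th in GPR35-negative libraries.

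**Figure D4:**
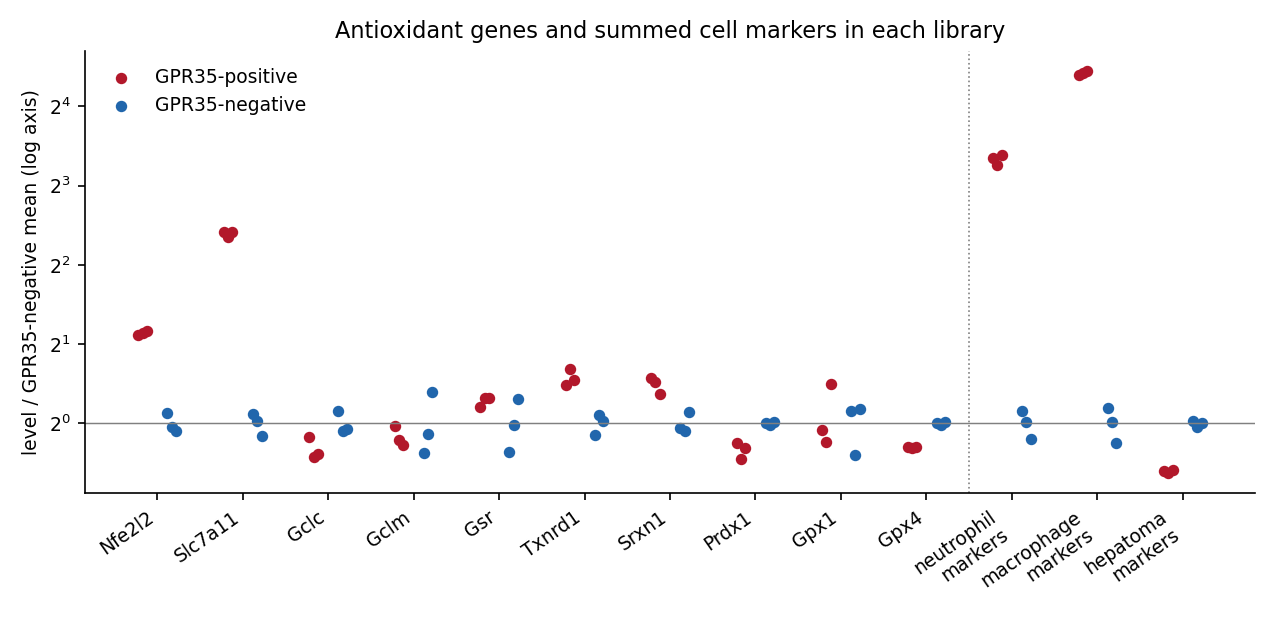
Level in each library divided by the GPR35-negative mean (log axis) for the 10 genes, left of the dotted line, and for the summed markers of neutrophils, macrophages and hepatocytes or hepatoma, right of it. The GPR35-positive libraries stand 5.25-fold above the GPR35-negative mean for Slc7a11 and 2.21-fold for Nfe2l2 on average, beside 10.1, 21.5 and 0.657 for the marker sums.

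The partners and brakes of NRF2 were called in both directions, as among all genes tested. Of 9 genes tested in the NRF2 control list, 6 rose and 2 fell, beside 23.3% and 45.5% of all genes tested. With median-of-ratios scaling 6 rose and 1 fell. Bach1, a repressor that competes with NRF2 at antioxidant response elements, rose to 4.45 ± 0.386 FPKM among GPR35-positive libraries, against 1.47 ± 0.253 FPKM in GPR35-negative ones (SD, n = 3 each, log2 fold change 1.15, adjusted p = 4.11e-06). The small MAF genes Mafk and Maff, whose proteins pair with both NRF2 and BACH1, rose by 1.01 and 0.48. Sqstm1, the gene of p62, which binds KEAP1, rose by 0.30 (adjusted p = 0.00238). Keap1 averaged 5.33 ± 0.405 FPKM in GPR35-positive and 6.63 ± 0.387 FPKM in GPR35-negative libraries, and its fall of 0.27 (adjusted p = 0.0187) was lost under that scaling (adjusted p = 0.364) and without GPR35-negative replicate 2 or GPR35-positive replicate 1 (0.0570 and 0.0643). The related factor gene Nfe2l1 fell by 0.74. Nfe2l2 per Keap1 averaged 17.2 ± 1.06 in GPR35-positive and 6.27 ± 0.913 in GPR35-negative libraries, while Nfe2l2 per Bach1 averaged 20.6 ± 1.46 and 28.7 ± 4.73 in the same order of groups (SD, n = 3 each).

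Other genes known as NRF2 targets moved in both directions, as among all genes tested. Of 13 tested, 5 rose and 8 fell, beside 23.3% and 45.5% of all genes tested, or 5 and 6 with median-of-ratios scaling. Cbr3 passed the filter only through the GPR35-positive libraries, so its call is no support for a rise. Hmox1, the haem oxygenase 1 gene, rose to 315 ± 15.6 FPKM among GPR35-positive libraries, against 209 ± 8.45 FPKM in GPR35-negative ones, and the ferritin chain gene Fth1 to 3084 ± 184 FPKM, against 1805 ± 90.5 FPKM (SD, n = 3 each). The other ferritin chain gene Ftl1, the carbonyl reductase gene Cbr3 and the aldo-keto reductase gene Akr1b10 rose by 0.42, 1.39 and 0.32; Cbr3, at 1.92 ± 0.251 FPKM in GPR35-positive and 0.113 ± 0.0339 FPKM in GPR35-negative libraries (SD, n = 3 each), was 3.25 higher with a pseudocount of 0.1 and 3.86 higher with limma-voom. Blvrb, a biliverdin reductase gene, fell by 0.48 (adjusted p = 0.00021). Nqo1, the quinone reductase gene often used as an NRF2 readout, was at 28.9, 27.1 and 27.9 FPKM among GPR35-positive libraries, against 43.8, 38.8 and 40.9 FPKM in GPR35-negative ones, and fell by 0.54 (SE 0.07, adjusted p = 0.000101). Nqo1 was thus lower in the libraries in which Nfe2l2 was higher. Its ratio of means was 0.680, beside 0.657 for the summed hepatocyte and hepatoma markers. Of 17 glutathione S-transferase genes tested, 1, Gstt2, rose and 10 fell, beside 23.3% and 45.5% of all genes tested. Gstt2 passed the filter only through the GPR35-positive libraries, so its call is no support for a rise. With median-of-ratios scaling 1 rose and 8 fell. As deposited, Gsta4, Gstp1 and Gsto1 fell by 0.70, 0.63 and 0.44.

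Genes that supply NADPH, and those that remove superoxide and hydrogen peroxide directly, moved in both directions, as among all genes tested. Of 8 NADPH supply genes tested, 1 rose and 5 fell, beside 23.3% and 45.5% of all genes tested. With median-of-ratios scaling 1 rose and 3 fell. Taldo1, the transaldolase gene of the pentose phosphate pathway, rose by 0.74, while the malic enzyme gene Me1 and the pentose phosphate genes Pgls and Tkt fell by 0.92, 0.60 and 0.53. Of 4 superoxide dismutase and catalase genes tested, 1 rose and 3 fell, beside 23.3% and 45.5% of all genes tested. Sod2, the mitochondrial dismutase gene, rose by 0.73, and Sod1, Cat and the copper chaperone gene Ccs fell by 0.63, 0.27 and 0.31. With median-of-ratios scaling 1 rose and 1 fell. The falls of Cat and Ccs were the ones lost (adjusted p = 0.361 and 0.311), and that of Ccs also without GPR35-negative replicate 1 or 2 or GPR35-positive replicate 1 or 3 (0.0567 to 0.0618).

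Genes of the amino acid response, which ATF4 drives and to which Slc7a11 also belongs, were called in both directions, as among all genes tested. Of 13 tested, 5 rose and 6 fell, beside 23.3% and 45.5% of all genes tested, or 6 and 4 with median-of-ratios scaling. Atf4 itself averaged 117 ± 4.36 FPKM in GPR35-positive and 124 ± 1.03 FPKM in GPR35-negative libraries (SD, n = 3 each) and did not pass (log2 fold change −0.08, adjusted p = 0.294); after rescaling by the median of ratios the value was 0.12 (adjusted p = 0.131). Besides Slc3a2, Chac1 and Sesn2, the stress factor gene Ddit3 rose by 0.33, and so did Cebpb, a transcription factor gene, at 86.7, 86.0 and 94.5 FPKM among GPR35-positive libraries, against 21.2, 26.3 and 67.7 FPKM in GPR35-negative ones. The serine synthesis genes Phgdh and Psat1 fell by 0.72 and 0.55, and the lipoprotein receptor gene Vldlr by 0.67.

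**Figure D5:**
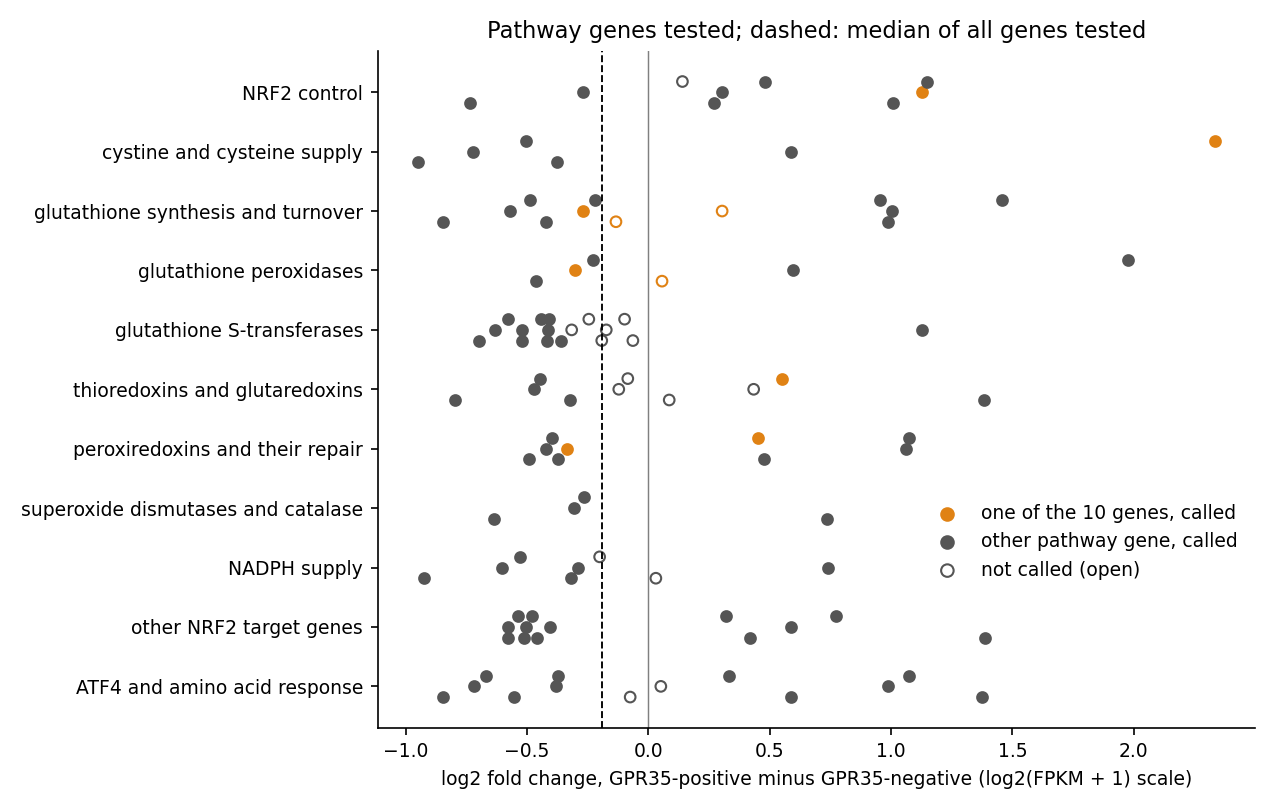
Log2 fold change, GPR35-positive minus GPR35-negative, on the log2(FPKM + 1) scale of each gene tested in 11 pathway lists, filled where the adjusted p was under 0.05; orange points are the 10 genes, and the dashed line marks the median of all genes tested, −0.19. Slc7a11 at 2.33 and Gpx3 at 1.98 lie farthest to the right, and most lists hold genes on both sides of the dashed line.

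Over all lists, 94 of 106 pathway genes outside the 10 were tested. Of these, 26 rose and 53 fell, beside 23.3% and 45.5% of all genes tested, and 15 were not called. After scaling by the median of ratios, 29 of the 94 were higher and 37 lower, beside 2950 and 2392 of all 10078 genes tested. As deposited, the median log2 fold change of the 94 was −0.32, beside −0.19 for all genes tested. Of the 94, 84.0% were called, beside 68.8% of all genes tested. Among them, Ggt5, Gstt2, Gpx7 and Cbr3 were under 1 FPKM in every GPR35-negative library, and Gpx2 in every GPR35-positive one. Each thus passed the filter only through the group in which it was higher, and its call is no support for that direction.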

How the data were processed

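RNA of 6 mouse libraries was measured; per the labels' protocols it was Trizol-extracted total RNA, and the library kit was NEBNext Ultra II. The deposited values are FPKM in a single table, as its column names say, and all 6 value columns were used. Per the submitters' processing notes the tools included HISAT2 2.1.0, DESeq 1.38.3, fastp 0.22.0 and also HTSeq 0.9.1, with no role given to any. The same notes give GRCh38, a human build, although all gene IDs are those of mouse; annotation and strand use are not given in the sources used here. Symbols, positions and exon lengths came from GENCODE M21 (GRCm38), which held 21851 of 21959 IDs. With these lengths 97.7% of values above 0 were whole reads within 0.02 reads, all values of the 10 genes among them. Same-group libraries differed by a mean chi-square of 4.93 to 19.1 per gene, more than counting noise, so none was treated as a duplicate.

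Genes with at least 1 FPKM in 3 libraries were tested with limma-trend (limma 3.58.1, R 4.3.3) on log2(FPKM + 1). The model held a term for group and no other, tests were two-sided, and p-values were adjusted after Benjamini and Hochberg across the 10060 genes, with a threshold of 0.05; adjusted p-values are limma's. The test was also run on simulated counts in which few genes changed, equally up and down. That check does not cover data in which most genes differ, as here. The alternatives were a pseudocount of 0.1, 2 other filters, median-of-ratios scaling, limma-voom on recovered reads, a replicate block and leaving out each library. The 10 genes and the pathway lists were chosen with earlier results of these data known. Named genes are the 10, up to 4 per list with the smallest p, those called against their list's majority, Gpr35, the 5 nearest to Slc7a11, the markers Trf and S100a8, and 8 chosen after their values were seen. Python 3.11.15, numpy 2.4.6, pandas 2.3.3 and matplotlib 3.10.9 were used.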

Additional observations from a re-analysis of the deposited data

How the results depend on the processing

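The rises of Slc7a11, Nfe2l2, Txnrd1 and Srxn1 kept their direction and passed in all 12 alternatives run, with log2 fold changes of 2.26 to 2.53, 1.08 to 1.32, 0.48 to 0.74 and 0.41 to 0.64. Median-of-ratios scaling gave 2950 genes higher and 2392 lower, against 2342 and 4575 as deposited, so that 55.2% of calls were higher against 33.9%, and 0 of the 10 genes were lower by limma; 5934 genes had an unadjusted p under 0.05. With a mean of at least 5 FPKM, 1260 genes were higher because fewer were tested. Leaving out 1 library gave 2176 to 2362 genes higher, 3900 to 4558 lower, and 4 to 5 and 2 to 3 of the 10 genes. With the replicate block, 2365 genes were higher and 4633 lower, Gsr passed (0.30, adjusted p = 0.0304), and no other call of a gene named here changed. Deviations of same-numbered libraries from their group means had r of −0.0018, 0.40 and −0.064. The 0.40 was the highest among all pairs of libraries across the groups. The labels state no pairing, and with 3 libraries per group these values cannot show whether there was one. The sign turned for Gclm without GPR35-negative replicate 3 (0.078; −0.30 to 0.078 over the libraries left out) and with median-of-ratios scaling (0.061), for Gpx1 without GPR35-negative replicate 2 (−0.068) and GPR35-positive replicate 3 (−0.096; −0.096 to 0.16 over the libraries left out), and for Atf4 with median-of-ratios scaling (0.12), none of them called. Among genes near 1 FPKM, the rises of Ggt5 and Gstt2 were 2.57 and 2.22 with a pseudocount of 0.1. With median-of-ratios scaling Nqo1, Gss and Prdx6 still passed as lower, by less (−0.35, −0.30 and −0.30), and Sqstm1 and Ddit3 as higher, by more (0.50 and 0.53). Without a filter Gclc did not pass (adjusted p = 0.0561). Where not stated, the cause of a change was not tested. Of the 10 genes, depth limits Gpx1, with 39 to 78 reads per library.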
